A study of Mus musculus with 2 samples.

Results

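The expression of 10 genes of growth factor receptor tyrosine kinases was compared between cultured mouse neural retinal progenitor cells (mNRPCs) and mouse retina. The genes were taken by name (Egfr, Erbb2, Erbb3, Pdgfra, Pdgfrb, Met, Kit, Axl, Ddr1 and Ntrk2). All 10 were found among the 31253 genes of the expression table. There was 1 library from mNRPCs at passage 24 and 1 from retina tissue, both of C57BL/6 mice. The mNRPCs had been grown out of dissociated adult neural retina on Matrigel, in a medium that held bFGF and the Wnt pathway agonist CHIR99021. The age of the mice behind the retina library is not in the labels. bFGF acts on FGF receptors. EGF, a ligand of the Egfr product, was in the medium of the first cultures and was later withdrawn, and the labels of the passage 24 library do not list the factors in its medium. As 1 library stands for each group, no difference here has a replicate check, and no p-value was calculated. Intervals cover counting error only.

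Receptor tyrosine kinases are single-pass membrane proteins. Binding of a ligand brings receptor chains together, the kinase domains phosphorylate tyrosines of the partner chain, and adaptor proteins that dock there start RAS/ERK, PI3K/AKT and phospholipase C signalling. In the retina, EGF receptor signalling is known as a mitogenic signal for progenitors and Müller glia. PDGFRA marks retinal astrocytes, PDGFRB marks the pericytes of vessels, and NTRK2 (TrkB) carries the BDNF survival signal of ganglion cells.

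Levels are given in FPKM, fragments scaled to the length of the transcript and to the mapped total of the library. This unit is per length, so that levels of different genes can be set side by side. The log2 ratio is log2 of (mNRPC FPKM + 1)/(retina FPKM + 1), and it understates the change of low genes. A gene that reached 1 FPKM in either library was compared, and it was counted as higher or lower in mNRPCs when this log2 ratio was at least 1 in size. Of the 10 receptor genes, 5 were higher in mNRPCs (Axl, Met, Egfr, Pdgfrb and Erbb2), 1 was lower (Ntrk2), 2 were within the threshold (Ddr1 and Pdgfra), and 2 stayed under 1 FPKM in both libraries (Erbb3 and Kit). Over all 13780 genes compared, 24.5% were higher and 30.0% were lower, 54.4% in either direction. The number of higher receptor genes fell to 3 (Axl, Met and Egfr) when the libraries were rescaled to a common FPKM sum. Under this rescaling the median log2 ratio of all genes compared moved from −0.12 to −0.57.

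**Figure D1:**
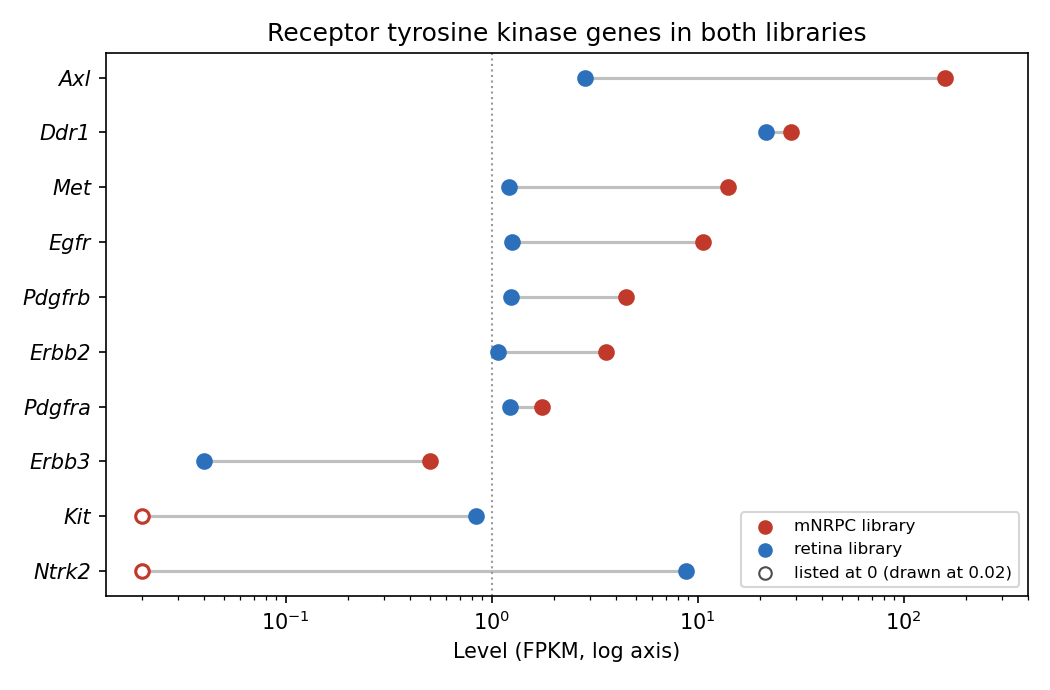
Level of each of the 10 receptor genes (FPKM, log axis) in the mNRPC library (red) and the retina library (blue), with open circles for genes listed at 0 and a dotted line at 1 FPKM. Axl stands at 158 FPKM in mNRPCs and at 2.85 FPKM in retina, while Kit and Ntrk2 are listed at 0 in mNRPCs.

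The retina library held its tissue's genes. The 10 rod markers summed to 16301 FPKM in retina and to 8.0 FPKM in mNRPCs, and each was at least 2-fold lower in mNRPCs. Of 12 progenitor markers, Sox2, Pax6 and Six3 were at 231, 122.6 and 39.7 FPKM in mNRPCs, while Rax and Six6 were listed at 0 there. Of 12 genes in broad use 0 were listed at 0 in either library. In bulk RNA a lower level can mean fewer cells of a type or less RNA per cell, and these cannot be told apart.

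For Egfr, Erbb2 and Kit, the windows in a promoter table from RefSeq end directly before the outermost start of the gene, and these 3 sequences are shown for that reason. Egfr and Erbb2 were counted as higher in mNRPCs, and Kit was listed at 0 there. The windows are the 250 bases before the start, 5′ to 3′ on the plus strand of GRCm38.p6, at chr11:16751953-16752202, chr11:98412234-98412483 and chr5:75574737-75574986. Capitals mark CpG dinucleotides, the sites that DNA methylation uses in mammals. Methylation was not measured in this series.
Egfr: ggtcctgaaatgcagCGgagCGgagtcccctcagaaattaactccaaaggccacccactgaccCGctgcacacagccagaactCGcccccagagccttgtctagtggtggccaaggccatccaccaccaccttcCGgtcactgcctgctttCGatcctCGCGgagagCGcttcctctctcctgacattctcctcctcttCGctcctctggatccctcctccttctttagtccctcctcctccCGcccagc
Erbb2: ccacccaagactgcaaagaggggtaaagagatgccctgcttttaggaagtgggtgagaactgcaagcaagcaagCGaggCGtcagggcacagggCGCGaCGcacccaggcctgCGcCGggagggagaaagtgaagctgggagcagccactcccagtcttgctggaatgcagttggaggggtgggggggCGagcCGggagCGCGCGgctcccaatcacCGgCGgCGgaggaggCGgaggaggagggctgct
Kit: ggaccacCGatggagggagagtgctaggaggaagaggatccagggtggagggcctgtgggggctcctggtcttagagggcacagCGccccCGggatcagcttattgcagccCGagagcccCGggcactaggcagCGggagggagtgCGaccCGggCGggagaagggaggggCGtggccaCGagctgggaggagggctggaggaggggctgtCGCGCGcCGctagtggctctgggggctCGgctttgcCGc
The Egfr window held 11 CpG, the Erbb2 window 16 and the Kit window 17, against a median of 6 over all 32851 windows of the same length. Among the other receptor genes counted as higher, the window of Axl held 5 CpG and that of Met 24, so that the windows of the higher genes lay on both sides of this median. Unlike those of Egfr and Erbb2, the windows of Axl and Met do not end before the outermost start of the gene. Of the other windows not shown, a window of Ddr1 held 34 CpG, and that of Ntrk2, listed at 0 in mNRPCs, held 19. The letters TATAAA were found in 0 of the 12 windows of the 8 receptor genes in the promoter table, on either strand, against 12.4% of all windows. The letters GGGCGG, the GC box, stood in 8 of these 12 windows, of which Ddr1 has 4 and Kit 2 that overlap, against 32.7% of all windows.

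Axl (chr7:25756500-25788924, GRCm38.p6) encodes a receptor of the TAM family, which binds GAS6 and PROS1 and takes part in cell survival and in the clearance of dying cells. It was at 158 FPKM in mNRPCs and 2.85 FPKM in retina. Axl was the receptor tyrosine kinase gene with the highest level in the mNRPC library and held 29.1% of the summed FPKM of 58 family genes there, against 1.10% in retina, where it ranked 23. The ratio of the levels was 55.7-fold (95% counting interval 43.2 to 73.1), from an estimated 4250 fragments in mNRPCs and 59.8 in retina. Its log2 ratio of 5.37 (counting error 0.14, SE) was at percentile 99.3 of all genes compared. The counting interval is far from equality, and under every scaling tried the log2 ratio stayed at 4.57 or more.

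The Axl level rested on predicted transcripts. Of 7 Axl rows, the 4 predicted by RefSeq held 99.0% of the mNRPC level and 97.3% of the retina level. The 3 curated rows were at 1.64 FPKM in mNRPCs and 0.0783 FPKM in retina, a 21.0-fold ratio, and the predicted rows at 157 and 2.77 FPKM, a 56.6-fold ratio. Both kinds of row were therefore higher in mNRPCs. With curated rows only, the log2 ratio of Axl was 1.29, because the pseudocount then outweighs the retina level.

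The other TAM receptors were less far apart between the libraries. Mertk, the receptor with which the pigment epithelium takes up photoreceptor outer segments, was at 8.14 FPKM in mNRPCs and 1.94 FPKM in retina, a 4.2-fold ratio (3.01 to 5.99). Tyro3 was at 13.1 and 6.31 FPKM, a 2.08-fold ratio (1.70 to 2.57) that stayed under the threshold on the log2 scale (0.95). The counting intervals of Mertk and Tyro3 do not reach that of Axl.

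Their ligands went in opposite directions. Gas6 was at 4.07 FPKM in mNRPCs and 79.6 FPKM in retina, 19.5-fold lower in mNRPCs (15.3 to 25.4). Pros1, protein S, was at 14.9 and 6.29 FPKM, 2.38-fold higher in mNRPCs (1.90 to 2.99). The library with the higher Axl level thus had the lower Gas6 level.

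Met (chr6:17463349-17573980) encodes the receptor of hepatocyte growth factor, which drives growth and motility of epithelial and progenitor cells. It was at 14.0 FPKM in mNRPCs and at 1.21 FPKM in retina, an 11.5-fold ratio (8.44 to 16.2), with a log2 ratio of 2.76. The 3 predicted rows held 85.0% of the mNRPC level. The curated row, which codes for 1379 amino acids, was at 2.10 and 0.390 FPKM, and with this row alone the log2 ratio was 1.16. Hgf, the ligand gene of Met, was listed at 0 in mNRPCs, against 0.223 FPKM from an estimated 3.46 fragments in retina.

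Genes that cut or activate ligands were also compared, from a list of 11. Of these 6 were higher, 0 were lower, 3 were within the threshold and 2 stayed under 1 FPKM. Among all genes compared 24.5% were higher and 30.0% lower. The median log2 ratio of the 9 genes compared was 1.30, and 0.49 with scaling by the genes in broad use. The plasminogen activator genes Plau and Plat, whose products can activate HGF, reached 19.6 and 56.2 FPKM in mNRPCs, against 0.269 and 3.78 FPKM in retina. Adam10 and Adam17, the proteases that shed EGF family ligands, reached 60.9 and 13.6 FPKM in mNRPCs, against 15.3 and 4.93 FPKM in retina. Hgfac and St14, which encode serine proteases that can also activate HGF, were the genes under 1 FPKM, with St14 at 0.0344 and 0.0481 FPKM and Hgfac at 0.0579 FPKM in mNRPCs, while retina lists it at 0. Rhbdf1, which encodes a rhomboid protein that assists Adam17, was at 22.4 and 2.0 FPKM.

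Egfr (chr11:16752203-16913907) encodes the EGF receptor. It was at 10.6 FPKM in mNRPCs and 1.25 FPKM in retina, an 8.44-fold ratio (6.53 to 11.1), from an estimated 609 and 64.8 fragments. The log2 ratio was 2.36 and stayed at 1.68 or more under the scalings tried. Egfr had 2 curated rows. The row of the full receptor, with 1210 codons, was at 8.67 FPKM in mNRPCs and 1.25 FPKM in retina. The row of a truncated form of 655 codons, which lacks the kinase domain, was at 1.90 FPKM in mNRPCs only, as retina lists it at 0. It made up 18.0% of the mNRPC level of Egfr. Reads shared by both rows were divided by estimation, so that this share is uncertain.

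Erbb2 and Erbb3 encode EGF receptor relatives that signal as pairs. ERBB2 binds no ligand of its own, and ERBB3 binds neuregulins but has little kinase activity. Erbb2 (chr11:98412484-98437716) was at 3.58 FPKM in mNRPCs and 1.08 FPKM in retina, a 3.31-fold ratio (2.17 to 5.24). Erbb3 (chr10:128567523-128589635) stood at 0.503 FPKM in mNRPCs and 0.0399 FPKM in retina, from an estimated 19.6 and 1.22 fragments. The Erbb3 ratio of 12.6 has a counting interval of 2.02 to 522, which bounds it only loosely. Erbb4, the remaining member of this family, was listed at 0 in mNRPCs, against 1.20 FPKM from an estimated 73.0 fragments in retina. The mNRPC library thus held Egfr as its main ERBB gene, with Erbb2 next.

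Of the 11 ligand genes of the ERBB receptors, 4 were higher in mNRPCs, against 24.5% of all genes compared. Areg (amphiregulin) was at 8.98 and 0.413 FPKM, Ereg (epiregulin) at 5.86 and 0.0567 FPKM, and Hbegf at 31.5 and 5.62 FPKM. The retina values of Areg and Ereg rest on an estimated 2.55 and 1.19 fragments, and the ratios of 21.7 (7.14 to 108) and 103 (18.3 to 4107) are correspondingly wide. Nrg2 was at 6.05 FPKM in mNRPCs and 0.386 FPKM in retina, a 15.7-fold ratio (7.0 to 43.6).

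Of the other 7 ERBB ligand genes 2 were lower in mNRPCs, 2 were within the threshold and 3 stayed under 1 FPKM. Among all genes compared 30.0% were lower. Tgfa and Nrg3 reached 2.28 and 2.46 FPKM in retina, and mNRPCs list both at 0. Nrg1 was at 0.484 and 1.65 FPKM, and Btc (betacellulin) at 5.75 and 8.79 FPKM, both within the threshold on the log2 scale. Egf itself was at 0.0472 FPKM in mNRPCs and 0.312 FPKM in retina and was not compared. Epgn and Nrg4 were at 0.200 FPKM or less in both libraries.

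Pdgfra (chr5:75151322-75198206) and Pdgfrb (chr18:61045127-61085067) encode the PDGF receptors, which drive mesenchymal, glial and mural cells. Pdgfrb was at 4.49 FPKM in mNRPCs and 1.24 FPKM in retina, a 3.63-fold ratio (2.49 to 5.42) with a log2 ratio of 1.29. Rescaling to a common sum took this log2 ratio to 0.94, under the threshold. Pdgfra was at 1.76 and 1.23 FPKM. Its ratio of 1.43 (0.97 to 2.13) included equality, and its log2 ratio of 0.31 turned to −0.24 when the libraries were scaled by the genes in broad use.

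Cell types known for these receptors were checked by their markers. Of 10 mural cell markers, Rgs5, Abcc9, Kcnj8 and Myh11 were listed at 0 in mNRPCs, and the list summed to 10.6 FPKM there and 16.3 FPKM in retina. Acta2, a contractile actin, made up 10.1 FPKM of the mNRPC sum. Of 6 astrocyte markers, Gfap and Pax2 were listed at 0 in mNRPCs, and the list summed to 0.426 FPKM against 80.3 FPKM in retina. Of 7 oligodendrocyte lineage markers 5 were listed at 0 in mNRPCs and 3 in retina, Olig1, Olig2 and Mog in both libraries.

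The 10 fibroblast markers, which include Pdgfra, summed to 552 FPKM in mNRPCs and to 113 FPKM in retina. In this list Col3a1 was at 450 FPKM in mNRPCs and 0.311 FPKM in retina, Twist1 at 83.7 and 0.185 FPKM and Postn at 12.8 and 0.320 FPKM. Of the defining genes Lum was listed at 0 in both libraries, Col1a1 was at 1.35 and 0.552 FPKM, and Col1a2 was at 0.0843 and 0.952 FPKM. Thy1, also a gene of ganglion cells, was at 0.244 and 106 FPKM. The part of any of these cell types in the receptor levels was not tested.

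Of the 4 PDGF ligand genes, Pdgfa was at 22.8 FPKM in mNRPCs and 2.79 FPKM in retina, an 8.20-fold ratio (5.59 to 12.4), and Pdgfc at 6.49 and 0.947 FPKM, a 6.85-fold ratio (4.14 to 12.1). Pdgfb was at 2.13 and 1.17 FPKM, within the threshold on the log2 scale. Pdgfd stayed under 1 FPKM in both libraries.

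**Figure D2:**
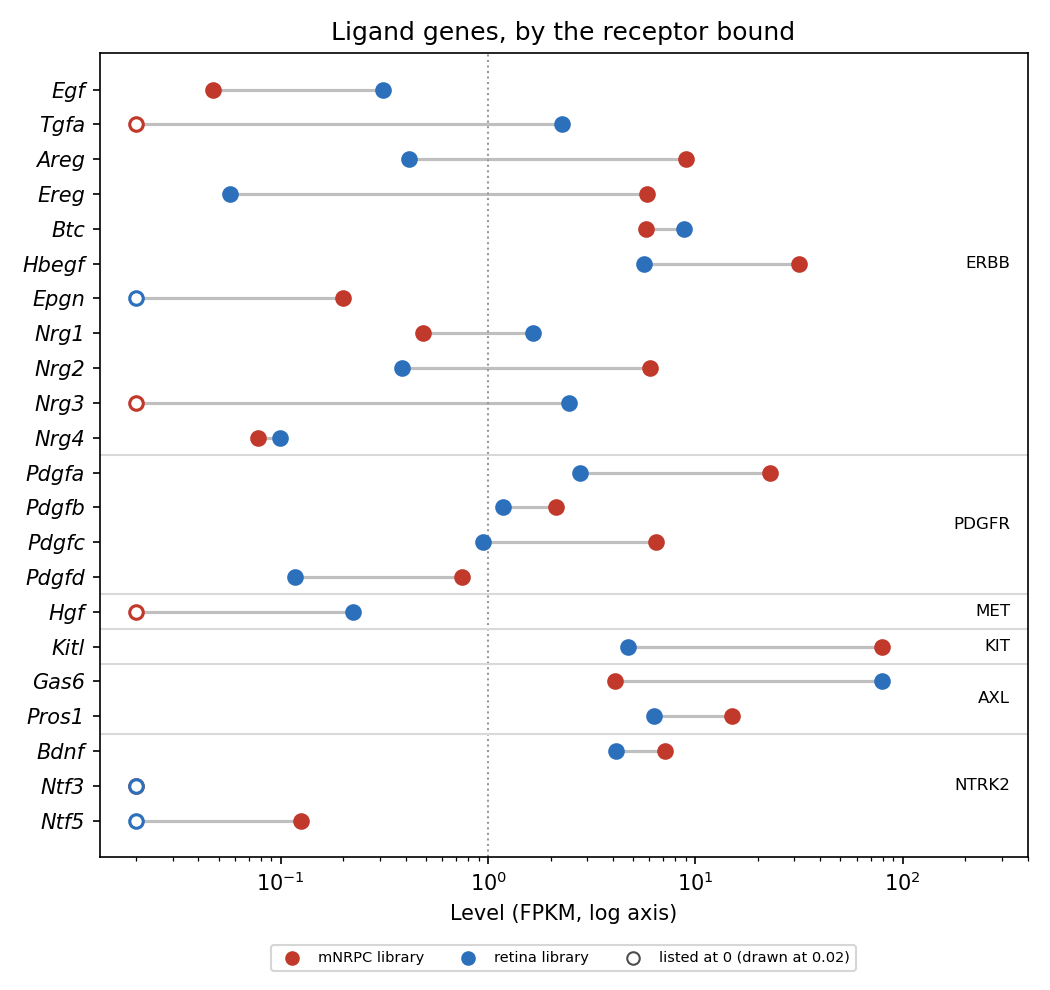
Level of 22 ligand genes (FPKM, log axis) in the mNRPC library (red) and the retina library (blue), grouped by the receptor bound, with open circles for genes listed at 0 (Ntf3 in both libraries). Kitl and Hbegf lie to the right in mNRPCs at 79.2 and 31.5 FPKM, and Gas6 lies to the right in retina at 79.6 FPKM.

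Kit (chr5:75574987-75656722) encodes the receptor of stem cell factor, known from melanocytes, mast cells and blood progenitors. The mNRPC library lists it at 0, and retina at 0.844 FPKM, from an estimated 22.4 fragments. In the mNRPC library 3 fragments of Kit would be 0.0887 FPKM. Both Kit rows, with 979 and 975 codons, were listed at 0 in mNRPCs, against 0.411 and 0.433 FPKM in retina. Kitl, which encodes stem cell factor, was at 79.2 FPKM in mNRPCs and 4.72 FPKM in retina, a 16.8-fold ratio (14.1 to 20.1). Kitl was the ligand gene with the highest mNRPC level of the 22, in the library where its receptor gene was listed at 0.

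Markers of melanocytes and pigment epithelium, among them cells known for Kit, were also read. Of 8 markers 6 were lower in mNRPCs and 2 stayed under 1 FPKM. They summed to 0.444 FPKM in mNRPCs and 39.7 FPKM in retina, with Dct, Tyrp1, Mlana and Rpe65 listed at 0 in mNRPCs. Csf1r and Flt3, the nearest relatives of Kit, were at 0.357 and 0.657 FPKM in retina, with Csf1r at 0.00796 FPKM and Flt3 listed at 0 in mNRPCs. Of 10 microglia markers 7 were listed at 0 in mNRPCs, among them Cx3cr1, Aif1 and C1qa. The part of these cells in the Kit level was not tested.

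Ntrk2 (chr13:58806472-59133970) encodes TrkB, the receptor of BDNF. All 7 of its rows were listed at 0 in mNRPCs, against 8.83 FPKM in retina, an estimated 237 fragments, where it ranked 10 of the 58 family genes. In mNRPCs 3 fragments would be 0.0843 FPKM. It was the only one of the 10 receptor genes counted as lower under each scaling tried. In retina, the rows of 821 codons, the form with a kinase domain, summed to 2.92 FPKM, and the row of 476 codons, a truncated form without it, was at 1.99 FPKM. The remaining 44.5% of the retina level was on predicted rows.

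Other neurotrophin receptor genes went the same way. Ntrk3 reached 2.12 FPKM in retina and was listed at 0 in mNRPCs. Ngfr, which encodes the p75 receptor shared by neurotrophins, was at 2.04 and 9.47 FPKM, 4.63-fold lower in mNRPCs (3.32 to 6.57). Bdnf was at 7.11 FPKM in mNRPCs and 4.15 FPKM in retina, within the threshold on the log2 scale (0.66). Ntf3 was listed at 0 in both libraries, and Ntf5, at 0.124 FPKM in mNRPCs, was listed at 0 in retina. Of 10 Müller glia markers, a cell type known for truncated TrkB, 8 were lower in mNRPCs, with Kcnj10 and Abca8a listed at 0, and 2 were higher, Vim and Hes1. The list summed to 3208 FPKM in mNRPCs, of which Vim made up 3138 FPKM, and to 2081 FPKM in retina. The part of Müller glia and neurons in the Ntrk2 level was not tested.

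Ddr1 (chr17:35681567-35704741) encodes a receptor of collagens, among them the collagen IV of basement membranes and Matrigel. It was the receptor gene of the 10 with the most even levels beside Pdgfra, at 28.3 FPKM in mNRPCs and 21.5 FPKM in retina, a 1.32-fold ratio (1.16 to 1.49). The log2 ratio, 0.38 as deposited, was −0.11 after rescaling to a common sum and to −0.49 with scaling by the genes in broad use. Ddr1 ranked 6 among the 58 family genes in mNRPCs and 3 in retina.

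The rows of Ddr1 did not share a direction. The 4 curated rows summed to 17.3 FPKM in mNRPCs and 5.31 FPKM in retina, a 3.26-fold ratio, and the 6 predicted rows to 11.0 and 16.2 FPKM, a ratio of 0.68. With curated rows only the log2 ratio of Ddr1 was 1.54, past the threshold. Among the curated rows, those of 911 codons were at 13.6 and 2.26 FPKM and the row of 874 codons at 3.69 and 3.05 FPKM. These rows share most of their sequence, and their shares are estimates. Ddr2, the second collagen receptor gene, which is known from mesenchymal cells, was at 42.7 FPKM in mNRPCs and 0.407 FPKM in retina, a 105-fold ratio (65.4 to 180.5).

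**Figure D3:**
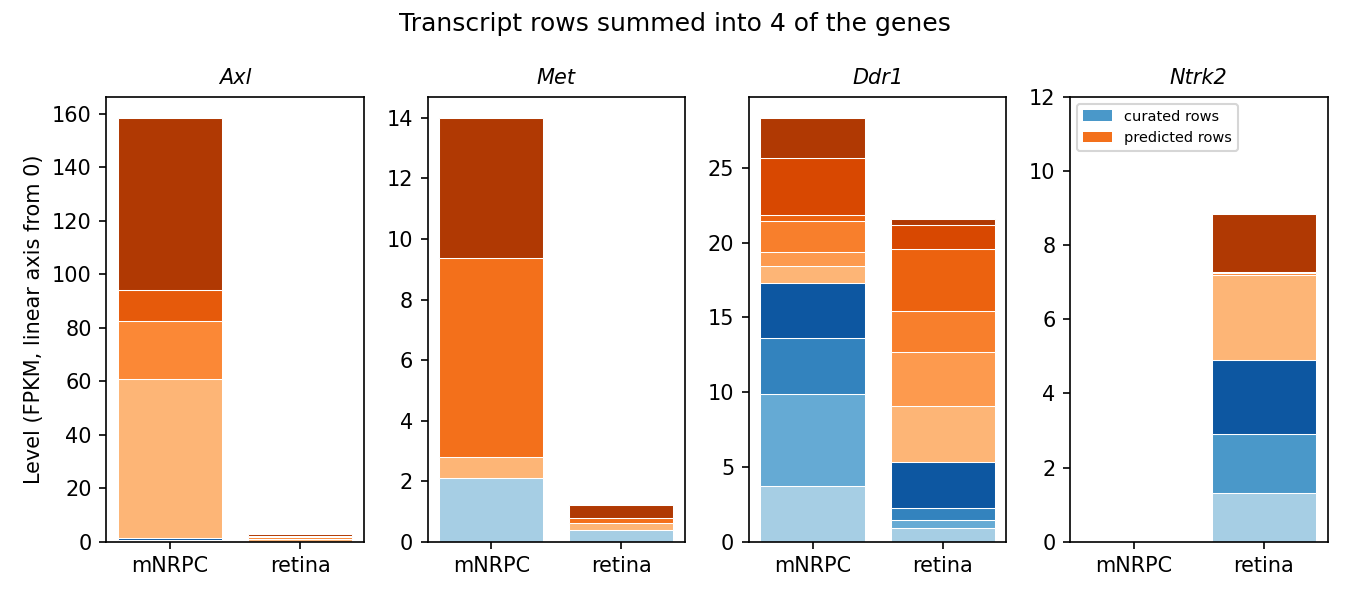
Transcript rows that were summed into Axl, Met, Ddr1 and Ntrk2 (FPKM, linear axes that differ between panels), with curated RefSeq rows in blue shades and predicted rows in orange shades. Nearly all of Axl lies on predicted rows, and for Ddr1 the curated part is larger in mNRPCs (17.3 FPKM) than in retina (5.31 FPKM) while the predicted part is smaller.

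The order of the 10 genes within a library was also read against counting error. In mNRPCs the order was Axl, Ddr1, Met, Egfr, Pdgfrb, Erbb2, Pdgfra and Erbb3, followed by Kit and Ntrk2 at 0. Neighbours in this order were separated by their counting intervals except Pdgfrb and Erbb2, whose ratio had an interval of 0.98 to 1.61. In retina the order was Ddr1, Ntrk2, Axl, Egfr, Pdgfrb, Pdgfra, Met, Erbb2, Kit and Erbb3. From Egfr to Kit no neighbours in retina differed beyond counting error, at levels between 0.844 and 1.25 FPKM.

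**Figure D4:**
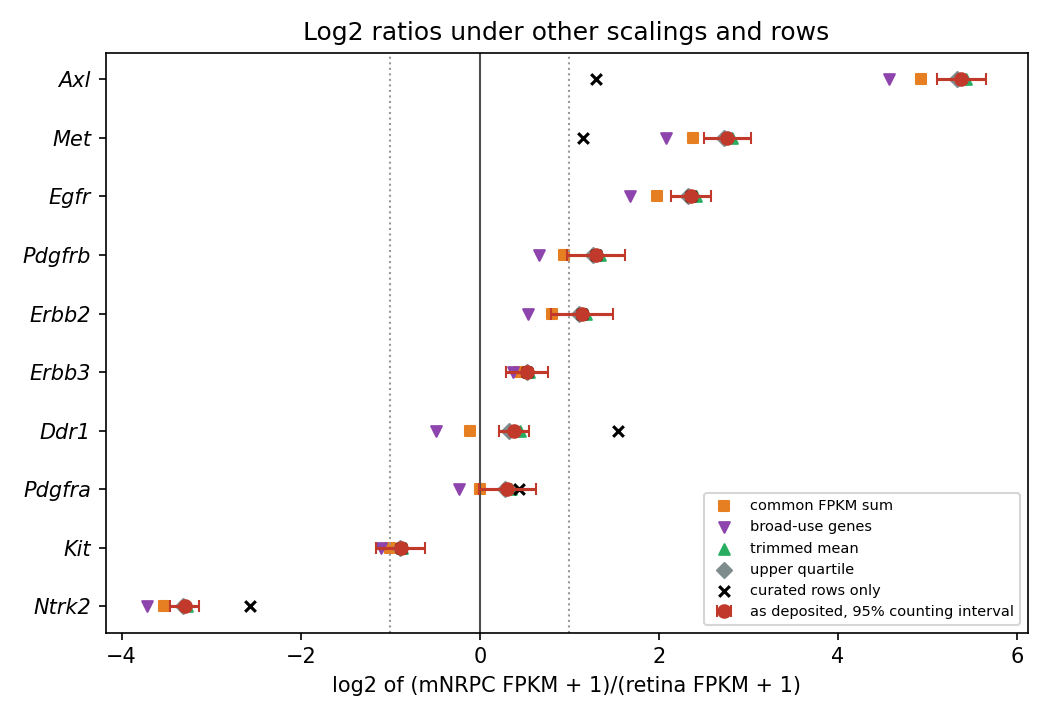
Log2 of (mNRPC FPKM + 1)/(retina FPKM + 1) of the 10 receptor genes as deposited (red, with 95% counting intervals) and under 4 other scalings and with curated rows only, with dotted lines at −1 and 1. Axl, Met and Egfr stay above 1 and Ntrk2 stays below −1 in each setting drawn, while Ddr1 and Pdgfra lie on both sides of 0.

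The rest of the receptor tyrosine kinase family was counted in the same way, beside the 24.5% higher and 30.0% lower of all genes compared. Of the 48 other family genes, 9 were higher in mNRPCs, 18 were lower, 7 were within the threshold and 14 stayed under 1 FPKM. The 34 of them that were compared had a median log2 ratio of −1.03. Its interval was −1.69 to 0.19 by order over the genes, which are not replicates, and includes the −0.12 of all genes compared. Over all 58 family genes 14 were higher and 19 lower, with a median of −0.54 over the 42 compared. With a minimum of 5 FPKM 12 were higher and 11 lower, with a median of 0.38 over the genes that reached it. Those of the 48 other genes that reached 1 FPKM in either library were ordered by log2 ratio. The largest log2 ratios, beside that of Ddr2, were those of the ephrin receptor genes Epha2 (43.2 FPKM in mNRPCs and 0.507 FPKM in retina), Ephb4 (22.6 and 0.979 FPKM) and Ephb6 (37.2 and 4.23 FPKM), and Styk1 (5.84 and 0.0616 FPKM). Ryk, a Wnt receptor named after its values were seen, was second to Axl in mNRPCs with 96.9 FPKM and was at 16.5 FPKM in retina.

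At the other end stood Kdr, which encodes VEGF receptor 2, with 0.0219 FPKM in mNRPCs and 29.5 FPKM in retina, and Aatk, with 0.160 and 25.1 FPKM. The ephrin receptor genes Epha10, Epha7 and Epha4 reached 9.50, 8.13 and 7.82 FPKM in retina, against 0.171 FPKM or less in mNRPCs, where Epha10 was listed at 0. Of 8 endothelial markers, which include Kdr, 4 were listed at 0 in mNRPCs, and the list summed to 0.151 FPKM there and 40.5 FPKM in retina. Kdr itself made up 29.5 FPKM of this retina sum, and the list holds further genes of the receptor tyrosine kinase family. The sum is therefore not separate from the Kdr level, and the part of endothelial cells in that level was not tested.

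**Figure D5:**
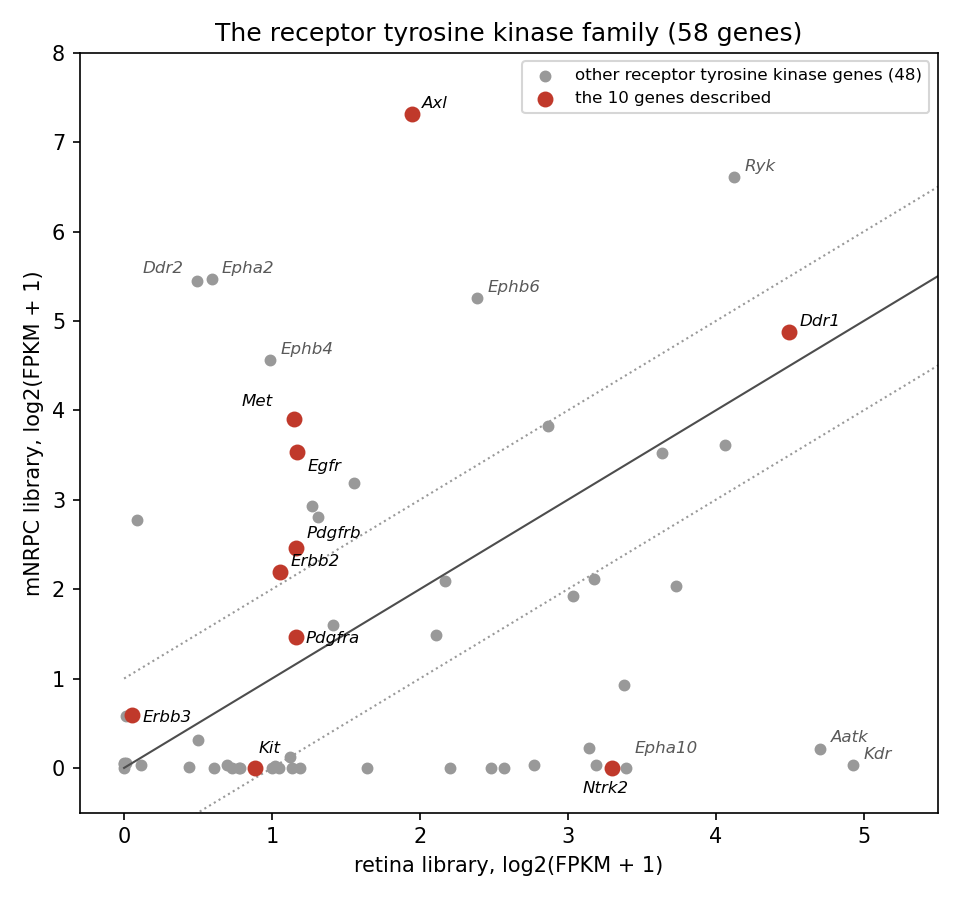
Level of 58 receptor tyrosine kinase genes in retina (x axis) and mNRPCs (y axis), both as log2(FPKM + 1), with the 10 genes described in red, the line of equal levels and dotted lines at a log2 ratio of −1 and 1. Axl lies highest in mNRPCs at 158 FPKM, and a row of genes, Ntrk2 among them, lies on the x axis at or near 0 in mNRPCs.

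Genes that act behind the receptors were compared list by list, beside the 24.5% higher and 30.0% lower of all genes compared. Of 25 genes of adaptors and the RAS/ERK cascade, 5 were higher in mNRPCs, 5 were lower, 14 were within the threshold and 1 stayed under 1 FPKM. Shc1, whose adaptor docks on ERBB, MET and TrkB receptors, was at 114 FPKM in mNRPCs and 6.26 FPKM in retina, an 18.2-fold ratio (14.7 to 22.8), while its neuronal relative Shc2 was listed at 0 in mNRPCs, against 6.63 FPKM in retina. Nras was at 64.6 and 10.4 FPKM. Araf and Braf, RAF kinase genes, were lower in mNRPCs, at 37.2 and 4.39 FPKM against 124.9 and 21.0 FPKM. Nck2 was at 33.3 and 5.03 FPKM, and Mapk3, the gene of ERK1, at 126.0 and 50.4 FPKM.

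Of 21 genes of PI3K, phospholipase C, SRC and STAT signalling, 11 were higher in mNRPCs, 1 was lower, 7 were within the threshold and 2 stayed under 1 FPKM. The shares over all genes compared were 24.5% higher and 30.0% lower. The median log2 ratio of the 19 genes compared in this list was 1.06 as deposited. It fell to 0.59 under the common sum and to 0.22 under the scaling by broadly used genes. Lyn was at 6.35 FPKM in mNRPCs and 0.153 FPKM in retina, Akt2 at 32.0 and 8.35 FPKM and Src at 42.4 and 12.2 FPKM. Pik3r1, a regulatory subunit of PI3K, was at 46.8 and 17.4 FPKM.

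Genes that take receptors down were mostly even. Of 20 genes, 5 were higher in mNRPCs, 0 were lower, 14 were within the threshold and 1 stayed under 1 FPKM. Among all genes compared 24.5% were higher and 30.0% lower. The median log2 ratio of the 19 genes compared was 0.24 and turned to −0.62 with scaling by the genes in broad use. Lrig1 and Lrig3, membrane proteins known to bind ERBB and other receptors, reached 72.5 and 16.4 FPKM in mNRPCs, against 10.4 and 0.633 FPKM in retina, ratios of 6.99 (6.15 to 7.98) and 25.9 (15.0 to 49.1). Sh3kbp1, which joins CBL to endocytosis, was at 24.1 and 3.51 FPKM. The ubiquitin ligase genes Cbl and Cblb were within the threshold, and Errfi1, an EGF receptor inhibitor, was at 13.3 and 9.74 FPKM, also within it.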

How the data were processed

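RNA sequencing values came from 2 mouse samples, grouped by their labels. The authors deposited FPKM per RefSeq transcript. Their methods name Bowtie 2 and eXpress, while the submitters' processing notes name TopHat2 2.0.10 and GRCm38.p3. eXpress divides shared reads among transcripts by estimation.

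Of 106754 rows, 74283 (69.6%) were matched to a symbol through RefSeq (GRCm38.p6) or GENCODE M21, without version, and summed per gene. Values below 1e-06 were read as 0. Depth, from the FPKM of 1 fragment, was estimated at 6.47e+06 fragments (mNRPC) and 5.07e+06 (retina). Fragment numbers of genes are estimates. Rows without a length took the gene's mean. Ratio intervals are exact binomial on rounded fragments. 3 fragments were taken as the detection limit. The depth and ratio steps were tested on simulated counts of rows with a known length (Python 3.11.15, scipy 1.17.1). Rows without a length, the division of shared reads and folds of low genes were not part of this test. Members and lists were chosen with earlier results of these data known. All members, and relatives and ligands that reached 1 FPKM, could be named, and of the other pathway lists the 5 highest and 5 lowest ratios past the threshold. Markers could be named for cell types known for a member. Ryk, Cbl, Cblb, Errfi1, the progenitor markers and relatives, ligands and ligand proteases under 1 FPKM fell outside this rule and were named after their values were seen. Alternatives were other pseudocounts, scalings, filters, thresholds and rows. Some genes of these lists are not reported here.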

Additional observations from a re-analysis of the deposited data

How the results depend on the processing

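Rescaling to a common FPKM sum, rescaling without the rod list, and scaling by the genes in broad use each lowered mNRPC levels relative to retina. These left 3 of the 10 receptor genes higher, as did a minimum of 5 FPKM and a log2 threshold of 2, and Pdgfrb and Erbb2 then fell out. The median of all genes compared moved to −0.57, −0.62 and −0.92 under these scalings, to −0.0099 with curated rows and to 0.0387 at 5 FPKM. The adaptor median moved to −0.43, −0.48 and −0.80, and that of receptor downregulation to −0.24, −0.30 and −0.62. With the broad-use scaling 9 family genes were higher, with a family median of −1.25, and a threshold of 2 also left 9. The number of lower family genes was 11 with versioned accessions, at 5 FPKM and at a threshold of 2. Lower ligand genes numbered 5 under the broad-use and the rod-free scaling and 1 at 5 FPKM and at a threshold of 2, and higher ligand genes numbered 2 with versioned accessions. At 5 FPKM the family median changed sign, from −0.54 to 0.38, and the ligand median went from 1.13 to 2.30, against 0.06 with versioned accessions, all within the wide intervals of these medians. The median of the PI3K list went from 1.06 to 0.22 with the broad-use scaling. In all, 27 counts and medians moved past 1.5 times or past their interval, and 147 did not. The intervals of the list medians run over genes, which are not replicates. For the receptor genes compared the interval was −3.30 to 5.37, their lowest and highest log2 ratio. A median could hardly leave so wide an interval, so the number 147 does not measure how stable the results are. Of the log2 ratios of members 51 moved past their counting error and 47 did not, and of the shares of a gene on its main row 8 moved and 10 did not. For members, a pseudocount of 0.1 took the log2 ratio of Ntrk2 to −6.48 and that of Egfr to 2.98. No member counted as higher or lower changed sign. For the other changes the cause was not tested. Depth limits Erbb3, Areg and Ereg in retina and genes listed at 0. No paired analysis was possible because the comparison rests on a single library on each side.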
